A study of Mus musculus with 2 samples.

Results

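CHH cytosines that carry a further cytosine at the position +2 (the second base downstream on the same strand) were split by the context of that cytosine, which lay in a CpG, a CHG or a CHH (H stands for any base but G). The rule took autosomal CHH sites of replicate 2 with 30 to 100 reads, no cytosine listed at +1 and a cytosine listed at +2. It found 1002177 sites, 16.3% of the 6165525 autosomal CHH sites of that depth. Of these, 40458 had a CpG cytosine at +2 (the CpG class, motif CHCG), 259167 a CHG cytosine (the CHG class, CHCHG) and 702552 a CHH cytosine (the CHH class, CHCHH). The base at +1 was A or T wherever every cytosine there was listed.

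The series compared cytosine contexts by bisulfite sequencing of dentate gyrus, a hippocampal region rich in granule neurons, in 2 libraries of 1 group labelled WT. The mice were C57Black6 males of 8 to 10 weeks with no treatment named in the labels, and a level averages over all cells of the tissue. Replicate 1 lists 124736 CHH cytosines from 20 reads upward and replicate 2 lists 6231179 from 30 reads upward, all on 1 strand class. Their median depths of 23 and 32 reads therefore follow unlike limits. For CHG, listed from 20 reads in both, the libraries have 39325 and 18322704 sites and a median of 23 reads each. In bisulfite reads an unmethylated cytosine appears as thymine, and methylcytosine and hydroxymethylcytosine both stay cytosine. A level below is the number of methylated reads over all reads of a class.

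In most mammalian tissues methylation sits almost wholly at CpG, where both strands carry it and it is copied after replication. Neurons also gain methylation outside CpG after birth, laid down by the methyltransferase DNMT3A on 1 strand only. This methylation favours an adenine after the cytosine, and CAC is the preferred triplet in neurons. In a CHH site with a cytosine at +2 the triplet is CAC or CTC where +1 is no cytosine, and which of these stands at a site was not read here.

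The 3 classes had different levels in replicate 2. Sites with a CHH cytosine at +2 were methylated in 2.45% of 23818596 reads (exact Clopper-Pearson 95% interval 2.44% to 2.46%). Sites of the CHG class were at 1.20% of 8670072 reads (1.19% to 1.21%). Sites of the CpG class were at 0.787% of 1359318 reads (0.773% to 0.802%). The CHH class was thus 2.04 times the CHG class and 3.11 times the CpG class, and the CHG class 1.53 times the CpG class. All autosomal CHH sites of the same depth were at 0.889%, so the CpG class lay below and the CHG and CHH classes above that level.

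Each pair was compared with an error clustered by 1 Mb region, since neighbouring sites share reads and local methylation. The CpG class minus the CHG class was -0.414 points (95% interval -0.448 to -0.380; n = 2416 regions, Benjamini-Hochberg adjusted p = 1.24e-126). The CpG class minus the CHH class was -1.66 points (-1.73 to -1.60), and the CHG class minus the CHH class was -1.25 points (-1.29 to -1.20). The order of the CpG and CHG classes was not the same in replicate 1, where the CpG class was above the CHG class by 0.841 points, nor at positions listed in both libraries, where it was above it by 0.0688 points in replicate 2. Within 1 Mb regions the same differences were -0.442, -1.80 and -1.30 points. These intervals describe 1 library and cover counting and regional error only, not variation between libraries. The reads carry no molecular identifiers, and no source used here gives duplicate removal.

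In replicate 2 the order held on each autosome. The CHH class lay above the CHG class, and that above the CpG class, on 19 of 19. The CHH class ranged from 2.13% (chromosome 7) to 2.71% (chromosome 9), with a mean of 2.46% ± 0.180 (SD over 19 autosomes). The CHG class ranged from 1.03% to 1.31% and the CpG class from 0.630% to 0.958%. The ranges of the 3 classes did not overlap.

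**Figure D1:**
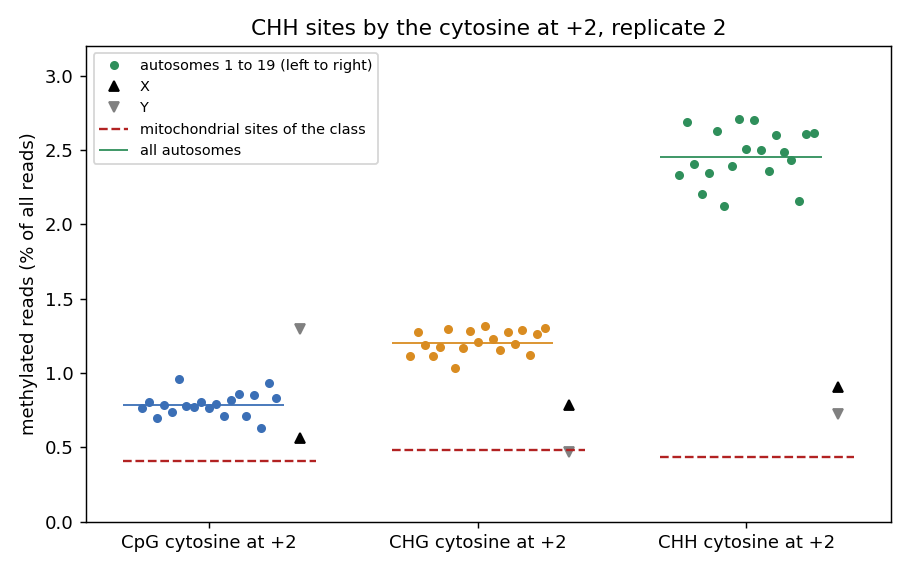
Level of CHH sites (methylated reads, % of all reads) in the 3 classes of replicate 2, with 1 point per autosome, a solid line for all autosomes together, triangles for X and Y, and a dashed line for mitochondrial sites of the class. The autosome points of the CHH class (2.13% to 2.71%) lie above those of the CHG class (1.03% to 1.31%), which lie above those of the CpG class (0.630% to 0.958%).

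Mitochondrial cytosines, taken as little methylated, gave a background for each class. Few mitochondrial sites had 100 reads or fewer (10 in the CHH class, 0 in the other classes), so those of any depth from 30 reads were used. The mitochondrial level was 0.406% at 27 CpG-class sites, 0.480% at 43 CHG-class sites and 0.432% at 338 CHH-class sites. The autosomal levels were 1.94, 2.50 and 5.66 times these. Above the mitochondrial level, the CpG class had 0.381 points, the CHG class 0.722 and the CHH class 2.02.

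CHH sites with other neighbours served as a comparison. With no cytosine listed at +1 or +2, 3814341 sites were at 0.767%, near the CpG class. With a cytosine directly at +1 they were at 0.340% (CHG at +1, 318068 sites) and 0.360% (CHH at +1, 1030939 sites). Those last levels were 1.07 and 1.17 times the mitochondrial level of the same kind of site (0.319% and 0.309%). A cytosine at +1 thus went with levels close to the mitochondrial background, whereas a cytosine at +2 went with levels that depended on its own context.

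The members differ from those sites by having no cytosine listed at +1, and a cytosine below a table's minimum depth would be unlisted too. With at least 30 reads at the site and at +2, a cytosine was listed at +1 beside 20% (CpG), 20.4% (CHG) and 20% (CHH) of sites. With at least 40 reads at both, these shares were 21.8%, 21.8% and 21.6%. The shares were alike in the 3 classes at these depths. With at least 50 reads at both, they were higher and less equal, at 23.5%, 25.6% and 25.1%. In the CpG class a cytosine at +1 is a CHG, listed from 20 reads. In the other classes it is a CHH, listed from 30 reads, so unlisted ones may differ by class. At 40 reads the order of the classes was kept, at 0.683%, 0.930% and 1.69%.

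Levels moved with depth. The CHH class was at 2.55% at 30 to 31 reads, 2.49% at 35 to 39, 2.11% at 40 to 49 and 1.03% at 50 to 100 reads, the last from 14345 sites. The CHG class went from 1.22% to 0.580% and the CpG class from 0.790% to 0.607% between the same ends. Just beyond the depth limit, at 101 to 200 reads, the classes were at 0.556% (CpG), 0.578% (CHG) and 0.988% (CHH). With at least 50 reads at the site and at +2, the CpG and CHG classes differed by -0.0215 points (-0.178 to 0.135, clustered by region, n = 572 regions, adjusted p = 0.787), while the CHH class was still the highest. The part of depth in these levels was not tested.

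Most members had no methylated read: 86.5% of the CpG class, 82.6% of the CHG class and 72.7% of the CHH class. A site was called methylated when its reads exceeded the mitochondrial CpH rate of 0.368% (CHG and CHH together) in a one-sided binomial test with Benjamini-Hochberg adjustment at 0.01 over all autosomal CHH sites of 30 to 100 reads. Over all these sites, 169817 passed, or 2.75%. The pooled rate lies below the mitochondrial level of each member class (0.406% CpG, 0.480% CHG, 0.432% CHH). It lies above that of sites with a cytosine at +1 (0.319% for CHG, 0.309% for CHH). The same rate for all was thus more lenient to the members than to those sites. In the CHH class 65907 sites were called (9.38%), in the CHG class 10405 (4.01%) and in the CpG class 868 (2.15%). The CHH class was called 3.41 times as often as all CHH sites, the CHG class 1.46 times and the CpG class 0.779 times. All CHH sites include those with a cytosine at +1, of which 0.592% (CHG) and 0.648% (CHH) were called. Of sites with no cytosine listed at +1 or +2, 2.20% were called, close to the CpG class.

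The calls in all classes rested on partial methylation. The median level of called sites was 13.9% in the CHH class and 12.9% in the other classes, and as few as 3 methylated reads sufficed for a call. Called sites carried 67.7% of the methylated reads of the CHH class, 51.8% of the CHG class and 38.8% of the CpG class. Among uncalled sites the order was the same, at 0.873%, 0.604% and 0.493%. A level of at least 20% was found at 18841 CHH-class sites (2.68%), 2056 CHG-class sites (0.793%) and 117 CpG-class sites (0.289%). At least 50% of reads were methylated at 1588, 86 and 4 sites.

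The sites with the lowest binomial p in each class are given with mm9 positions on the OT strand class. A low p depends on depth as well as level, so these are not always the sites of highest level. In the CHH class, position 3089325 of chromosome 11 was methylated in 74 of 97 reads (76.3%), while none of the 100 reads at +2 was methylated. Position 14954524 of chromosome 5 had 65 of 96 (67.7%) and position 48383655 of chromosome 1 had 61 of 80 (76.2%), again with 0% at +2. These CHH-class sites were thus methylated in most reads next to a cytosine with no methylated read. The first was also listed in replicate 1, where it was methylated in 65% of 20 reads.

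In the CHG class, position 41641729 of chromosome 10 was methylated in 40 of 44 reads (90.9%), with 45.5% at +2. Position 90135520 of chromosome 1 had 36 of 46 (78.3%) and position 6741877 of chromosome 5 had 37 of 63 (58.7%), with 0% and 1.52% at +2. The 3 CpG-class sites of lowest p had lower levels. Position 90183380 of chromosome 1 had 29 of 50 methylated reads (58%), position 19736190 of chromosome 8 had 20 of 39 (51.3%) and position 146775173 of chromosome 4 had 22 of 65 (33.8%). Their CpG cytosines at +2 were at 83.7%, 92.3% and 81.5%. Gene annotation and sequence of build mm9 were not used here, so these sites are given by position only.

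The level of the cytosine at +2 was examined next. That cytosine was methylated in 76.5% of reads in the CpG class, 0.933% in the CHG class and 1.14% in the CHH class. The most methylated neighbour thus stood beside the least methylated CHH sites. In the CHH class the member itself, at 2.45%, was above its own +2 neighbour. The 2 cytosines were not chosen alike. Members have no cytosine listed directly after them, whereas 150526 of the 702552 neighbours have one (at +3 of the member).

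Within the CpG class, CHH sites were lower where the CpG was little methylated. Their level was 0.461% (0.389% to 0.542%; 929 sites) beside a CpG of under 10% and 0.588% beside one of 10 to 20%. It lay between 0.764% and 0.818% in the 5 bins from 20% up to 100%. Sites beside a CpG of at least 80% (24289 sites, 0.799%) exceeded those beside one of under 20% (1746 sites, 0.520%) by 0.279 points (95% interval 0.186 to 0.371, clustered by region, n = 2409 regions, p = 3.59e-09). Between CpG levels of 20 to 40% and of 90% or more, the difference was -0.0273 points (-0.154 to 0.0991). From a CpG level of 20% upward no rise was detectable at this depth, and across all 40458 sites the correlation was near 0 (Pearson r 0.014, Spearman's rho 0.0027).

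Even beside a highly methylated CpG, the CpG class did not reach the other classes. At CpG levels of 90% or more it was at 0.818% (0.794% to 0.843%). CHG-class sites beside a CHG cytosine with no methylated read were at 1.11%, and CHH-class sites beside a CHH cytosine with no methylated read were at 2.24%.

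In the CHG and CHH classes the site rose with its neighbour across the bins. The CHG class went from 1.11% beside a cytosine with no methylated read (221220 sites) to 1.71% at a +2 level of 5 to 10%, 4.66% at 20 to 40% (1121 sites) and 12.5% above that (90 sites). The CHH class went from 2.24% (591735 sites) to 3.46%, 7.85% (5260 sites) and 14.2% (937 sites) over the same bins. Sites with a +2 level of at least 10% exceeded those with no methylated read there by 1.78 points in the CHG class (1.60 to 1.97) and 3.56 points in the CHH class (3.37 to 3.75). Within 1 Mb regions these differences were 1.64 and 3.11 points, so a large share of each was present among sites of the same region.

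**Figure D2:**
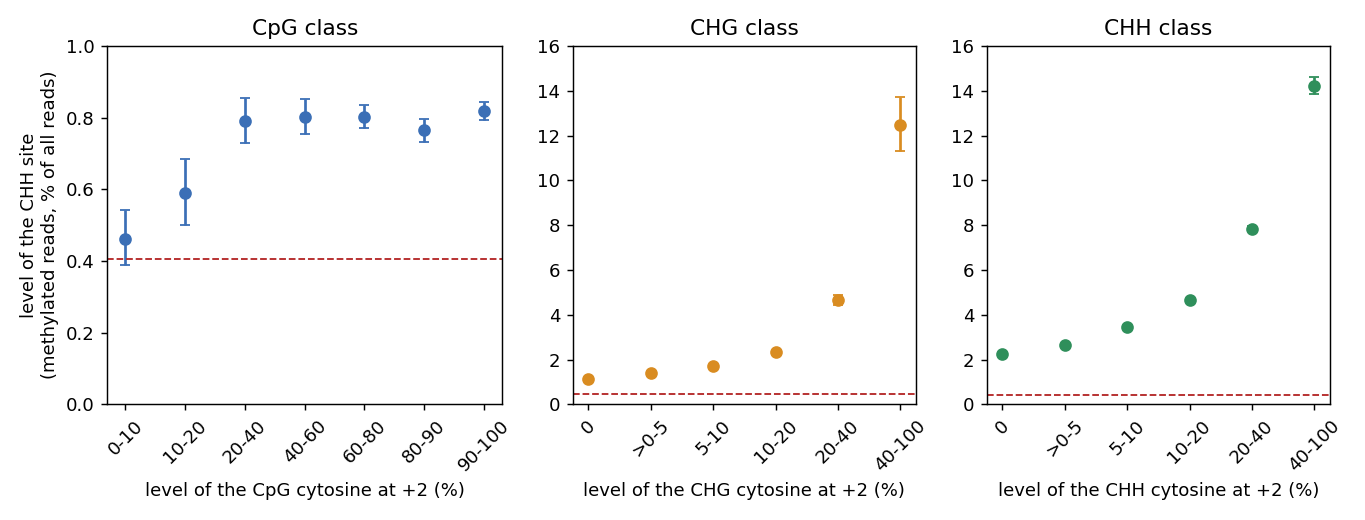
Level of the CHH site (% of reads, with exact 95% intervals) against the level of the cytosine at +2 in bins, for the 3 classes of replicate 2; the dashed line is the mitochondrial level of the class, and the first panel has a shorter vertical axis. The CpG class is flat from a CpG level of 20% upward, whereas the CHG class reaches 12.5% and the CHH class 14.2% in the last bin.

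Both cytosines of a pair are read by the same reads, and a read that failed conversion would raise both. The same relation was also read at CHH sites with a CHH cytosine directly at +1, whose level is near the background. They were at 0.344% beside a cytosine with no methylated read and at 0.921% beside one of at least 10%, a difference of 0.578 points (0.428 to 0.727). As a ratio this was 2.68 times, against 2.59 times in the CHH class, so the relation was larger in the CHH class in points but not as a ratio. The part of failed conversion in the relation was not tested.

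At the level of calls, 5755 of 702442 CHH-class pairs had both cytosines called. The member was called beside 21.3% of called +2 cytosines and beside 8.91% of uncalled ones. Over all pairs, 3.85% of the +2 cytosines were called. The correlation of levels was weak in both classes (Pearson r 0.097 and Spearman's rho 0.058 over 259167 CHG-class sites, 0.12 and 0.080 over 702552 CHH-class sites), and sites sharing reads are not independent.

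To see whether the position +2 stands apart, all autosomal CHH sites of 30 to 100 reads were split by the context of a cytosine listed at each offset from -10 to +10. A CHH cytosine at +2 went with 2.03%, against 0.866% to 1.29% at the 18 other offsets apart from +1. A CpG cytosine at +2 went with 0.698%, against 0.650% (at -3) to 1.34% (at +5) at 17 other offsets. A CHG cytosine at +2 went with 1.03%, inside the range of 0.719% to 1.17% at 16 other offsets. These values include sites with a cytosine at +1, so they are lower than those of the members.

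**Figure D3:**
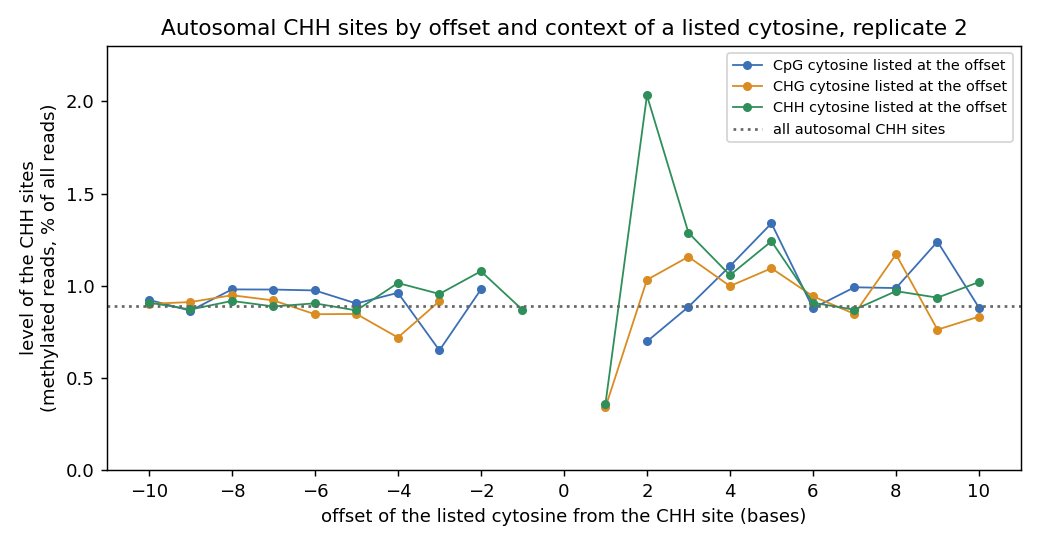
Level of autosomal CHH sites of replicate 2 (% of reads) by the offset of a listed CpG, CHG or CHH cytosine, with a dotted line at 0.889% for all such sites; gaps mark offsets where a context cannot occur. The CHH curve peaks at +2 (2.03%), and the CHG and CHH curves are lowest at +1 (0.340% and 0.360%).

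Other cytosines around the members split the classes further, a comparison added after the data were seen. In the CHH class, sites with another cytosine listed at +3 were at 3.31% and those without at 2.21%, a difference of 1.13 points within 1 Mb regions (95% interval 1.07 to 1.19). A cytosine at +5 went with 3.52% against 2.26% (1.29 points within regions, 1.22 to 1.36), and one at -2 with 3.09% against 2.32% (0.778 points, 0.723 to 0.832). A cytosine directly before the site, at -1, went with a lower level, 2.20% against 2.50%, a difference of -0.268 points within regions (-0.307 to -0.228). These values pool the context of the other cytosine, and single contexts at other offsets went lower. Within regions, a CpG at -3 went with -1.08 points (-1.27 to -0.887) and a CHG at -4 with -0.747 (-0.812 to -0.682). A CHG at -3 and a CHH at -4 went the other way, with 0.261 and 0.393 points.

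In the CHG class a CpG directly after the +2 cytosine (motif CHCCG) went with 1.93% at 7040 sites, against 1.18% without it (0.713 points within regions, 0.586 to 0.840). A CpG is the only cytosine that can stand at +3 in this class, so the part of its context could not be read there. Over all autosomal CHH sites, a CpG at +3 went with 0.886%, near the 0.889% of all such sites. Cytosines at -2 and +5 went with 0.344 and 0.355 points more in the CHG class, and with 0.145 and 0.0999 points more in the CpG class. At both offsets the intervals of the 3 classes excluded 0, and the CHH class had the largest values.

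Levels in the CHH class were highest where several of these neighbours were present. The 3 offsets combined here were those with the largest differences in the same sites, so the levels are a description and no separate test. With no CHH cytosine at -2, +3 or +5, 399404 sites were at 1.95% and 7.27% of them were called. A CHH cytosine at +3 alone went with 2.86% and at +5 alone with 3.17%. With CHH cytosines at both +3 and +5 the level was 4.79%, and with CHH cytosines at all 3 offsets it was 5.52% (5.39% to 5.65%; 3326 sites, of which 22.5% were called).

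**Figure D4:**
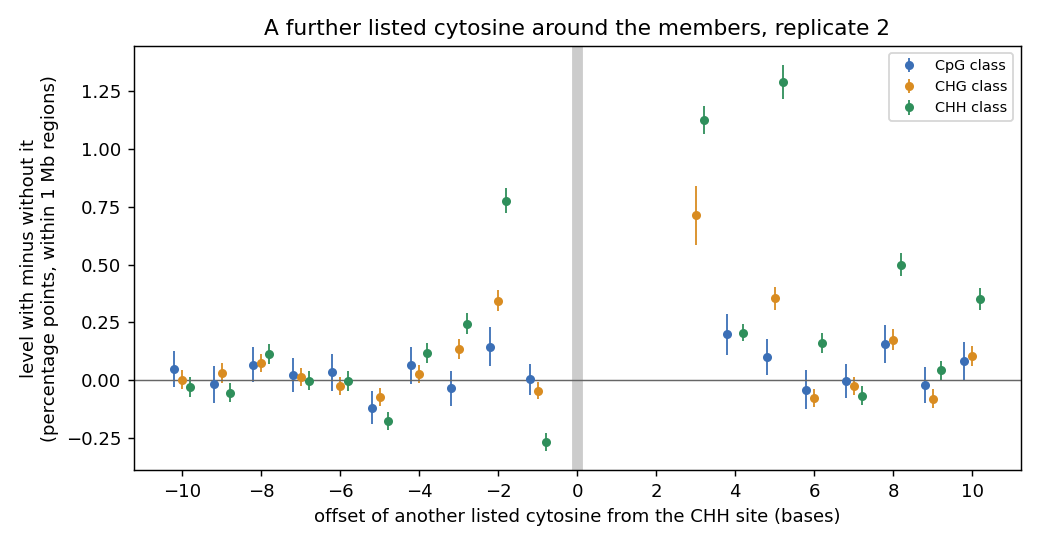
Difference in level between members with and without another listed cytosine at each offset (percentage points, averaged within 1 Mb regions, with 95% intervals clustered by region), for the 3 classes of replicate 2. Contexts of the other cytosine are pooled, though in the CHH class they differ in sign at -3 and -4. The CHH class has its highest values at +5 (1.29 points) and +3 (1.13 points) and its lowest at -1 (-0.268 points).

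Levels of all 3 classes rose across groups of regions, but not by the same amount. The 2107 regions of 1 Mb with at least 200 members were divided into 5 groups of equal size by the level of their CHG sites. These are separate cytosines, but of the same library. From the lowest group (CHG level 0.532%) to the highest (1.13%), the CHH class went from 1.34% to 3.85%, the CHG class from 0.782% to 1.70% and the CpG class from 0.613% to 0.989%. The CHH class was 2.19 times the CpG class in the lowest group and 3.90 times in the highest, and the gap between them went from 0.729 to 2.87 points. Even in the lowest group the classes kept their order.

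**Figure D5:**
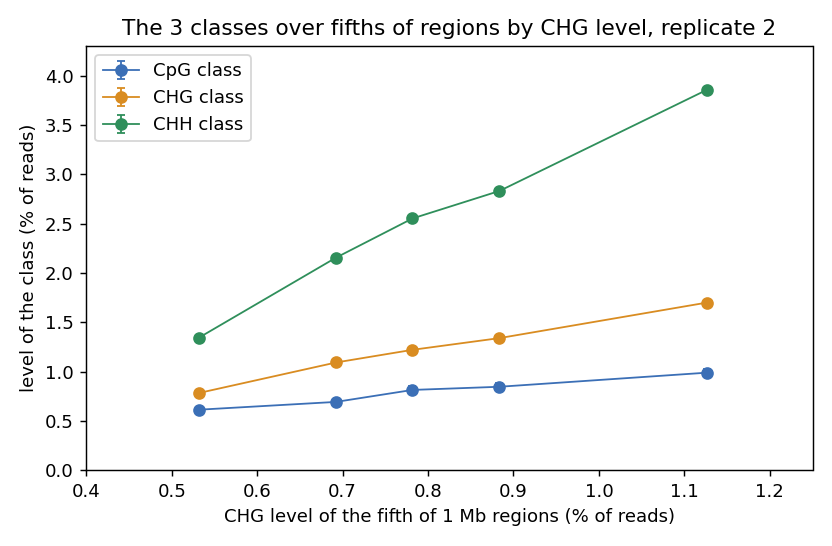
Level of the 3 classes (% of reads, with exact 95% intervals mostly smaller than the points) against the CHG level of 5 groups of 1 Mb regions in replicate 2. The CHH class goes from 1.34% to 3.85% and the CpG class from 0.613% to 0.989%.

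In single regions with at least 20 sites of both classes, the CHH class was above the CHG class in 2316 of 2392 (96.8%) and above the CpG class in 716 of 731 (97.9%). The CHG class was above the CpG class in 581 of 731 (79.5%). Levels of the CHG and CHH classes had a Spearman's rho of 0.58 across regions. Those of the CpG and CHH classes had one of 0.23 and those of the CpG and CHG classes one of 0.19, with fewer CpG-class sites per region. All come from the same library.

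By the level of all members together, the median region was at 2.10% (SD 0.815 over 2107 regions). The lowest, in build mm9, were chr7:14000001-15000000 (0.333%, 0.242% to 0.446%, 395 members), chr4:113000001-114000000 (0.333%) and chr7:92000001-93000000 (0.335%). Their CHH classes were at 0.372%, 0.351% and 0.329%, below the mitochondrial level of the class (0.432%), and 2, 2 and 1 members were called. In these regions, members did not stand above the background at this depth.

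The highest regions were chr6:99000001-100000000 (5.45%, 5.01% to 5.92%, 298 members), chr8:90000001-91000000 (5.38%) and chr2:135000001-136000000 (5.28%). In these the CHH class was at 7.42%, 7.57% and 7.06% and the CHG class at 2.32%, 1.96% and 1.85%. Their CpG classes were at 0.803%, 0.533% and 0.317%, on 27, 12 and 19 sites. In these 3 regions the CpG class thus did not share the high level, though so few sites give a wide counting error.

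On the X chromosome, present in 1 copy in males, the classes were lower and closer together. The CHH class was at 0.905% (0.850% to 0.963%; 2446 sites), the CHG class at 0.782% and the CpG class at 0.563%, each below all 19 autosomes. Depth differed: 27.7% of CHH-class sites on the X had 50 reads or more, against 2.04% on the autosomes. At 30 to 39 reads the CHH class was at 0.812% on the X (0.729% to 0.901%) and 2.54% on the autosomes. At 50 to 100 reads the values were 1.06% and 1.03%. Equal read counts do not make these sites alike, since a chromosome in 1 copy reaches such depth at fewer, more selected sites. Chromosome 1 had 63327 CHH-class sites against the 2446 of the X. The part of this selection in the X level was not tested. On the Y the CHH class was at 0.727% (468 sites) and the CHG class at 0.467%, and the 19 CpG-class sites were at 1.29% (0.756% to 2.06%).

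Replicate 1 listed far fewer sites and gave 6038 under the same rule. These were deeper than the members of replicate 2, with median depths of 46.5 (CpG class), 44 (CHG) and 43 reads (CHH) against 32. There the CpG class was at 1.55% (1.39% to 1.73%; 402 sites), the CHG class at 0.710% (0.647% to 0.778%; 1313 sites) and the CHH class at 1.69% (1.63% to 1.74%; 4323 sites). The mitochondrial levels of these classes were 0.431%, 0.445% and 0.422%. The CHH class was again above the CHG class, with a difference (CHG minus CHH) of -0.977 points (-1.74 to -0.212, clustered by region, n = 338 regions, adjusted p = 0.0184). The CpG class, however, was above the CHG class by 0.841 points (0.218 to 1.46, n = 190 regions, adjusted p = 0.0184). It differed from the CHH class by -0.136 points (-0.804 to 0.532, n = 313 regions, adjusted p = 0.689). Among autosomes with sites of both classes in replicate 1, the CHH class was above the CHG class on 15 of 19 and above the CpG class on 12 of 17, and the CHG class was above the CpG class on 5 of 17. The place of the CpG class below the CHG class therefore rests on replicate 2.

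CHH sites with a CHH cytosine at +1, which were near the background in replicate 2, were at 1.19% in replicate 1, 2.84 times their mitochondrial level. Of the members in replicate 1, 13 CpG-class, 18 CHG-class and 209 CHH-class sites were called (3.23%, 1.37% and 4.83%), against 3.07% of all its autosomal CHH sites of that depth. The CpG class was near that background, the CHG class below and the CHH class above it.

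Over both libraries, the CpG class had a mean of 1.17% ± 0.540, the CHG class 0.956% ± 0.348 and the CHH class 2.07% ± 0.539 (SD, n = 2). The CHG class minus the CHH class was -1.11 ± 0.192 points (SD, n = 2), the CpG class minus the CHH class -0.899 ± 1.08 and the CpG class minus the CHG class 0.213 ± 0.887. With 2 libraries the smallest p of an exact two-sided sign-flip permutation test is 0.5, and these comparisons gave exact p = 0.5, 0.5 and 1. Of these, the CHG minus CHH difference was the one larger than its spread between libraries.

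At positions listed in both libraries, with 20 to 100 reads in replicate 1, the CHH class was again highest. Its 4480 shared sites were at 2.89% in replicate 1 and 1.73% in replicate 2. The 1426 CHG-class sites were at 0.933% and 0.708%, and the 334 CpG-class sites at 1.70% and 0.776%. Here the CpG class was not below the CHG class in either library, and in replicate 2 the difference was 0.0688 points (-0.233 to 0.371, clustered by region, n = 419 regions, adjusted p = 0.655). Of the shared sites, the 331 CHH-class sites called in replicate 2 were methylated in 22.1% of reads in replicate 1, against 1.14% at the uncalled ones. For the CHG class these levels were 13.1% (31 called sites) and 0.668%. Sites called in replicate 2 were thus also high in the other library.

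In replicate 1 the further neighbours of CHH-class sites were read at 20 to 100 reads. A cytosine at -2 went with 3.50% against 1.84% (1.66 points, 0.626 to 2.70) and one at +5 with 2.99% against 2.04% (0.947 points, 0.175 to 1.72). One at +3 went with 2.39% against 2.16%, a difference whose interval includes 0 (-0.256 to 0.716). In the CHG class the difference at +5 was -0.233 points in replicate 1 (-0.480 to 0.0147), opposite in sign to replicate 2, whose value of 0.355 lies outside this interval. The CpG class at -2 also had the opposite sign (-0.179 points, -1.31 to 0.949). The CHG class at -2 (0.220) and +3 (0.10) and the CpG class at +5 (0.514) had the same sign as in replicate 2, with intervals that included 0.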

How the data were processed

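Dentate gyrus DNA of 2 libraries was read by bisulfite sequencing. Per the submitters' processing notes, Bismark 0.7.5 and build mm9 were used; no source used here gives trimming or duplicate removal. For each cytosine of 1 strand class the authors deposited counts of methylated, unmethylated and total reads, and a percent computed from these counts. CHH cytosines of replicate 2 are listed from 30 reads, the others from 20. No site had a neighbour that its context forbids (CpG at +1 of a CHH, any cytosine at +2 of a CHG).

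Members and comparisons were chosen with earlier results of these data known. Levels are read-weighted, with exact 95% intervals for counting error only. Differences have a linearised standard error clustered by 1 Mb region (n of regions beside each) and a two-sided normal p, adjusted by Benjamini-Hochberg over the 3 pairs at 0.05. Calls used an exact binomial test at an adjusted p of 0.01. Named sites are the 3 lowest p per class; named regions are the 3 highest and 3 lowest with at least 200 members. Tests were checked on simulated data with a shared effect per region and classes assigned at random. The simulated sites shared no reads, so the check does not cover that dependence. Python 3.11.15, numpy 2.4.6 and scipy 1.17.1 were used. Alternatives for depth, weighting, background and region are given in the closing section. Gene names were not used, because no annotation of build mm9 was used here.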

Additional observations from a re-analysis of the deposited data

How the results depend on the processing

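Class levels stayed within the SD between libraries in 29 of 36 alternatives. That SD has n = 2, includes replicate 2 itself and is wide (0.540 for a CpG-class level of 0.787%). Pairwise differences of replicate 2 kept direction and side of the threshold in 37 of 39. The levels that moved were those of the CHH class at 40 to 100 reads (1.74%) and with 40 reads at the site and at +2 (1.69%), and of the CHG class minus the mitochondrial level (0.722%). That subtraction also took the CpG class from 0.787% to 0.381%, within its SD between libraries of 0.540 but by more than 1.5 times. With 50 reads at both (chosen after seeing the data) the CHG class was at 0.567%, the CHH class at 1.02%, and the CpG minus CHG difference of -0.0215 points no longer passed. At positions shared with replicate 1 (also chosen then) the CHG class was at 0.708%, the CHH class at 1.73%, and that difference reversed to 0.0688. Leaving out a replicate gave CpG minus CHG from -0.414 to 0.841, CpG minus CHH from -1.66 to -0.136, and CHG minus CHH from -1.25 to -0.977; without replicate 1 the first, -0.414, had the opposite sign to the mean. A background rate of 1% gave 275, 4354 and 34723 calls (CpG, CHG and CHH class), and 40 to 100 reads gave 52, 581 and 3928, from fewer sites. The relation to the CpG level at +2 passed in all 6 alternatives (0.161 to 0.358 points). What caused these changes was not tested. No second group of samples exists to pair with these libraries. The class differences were taken within each library, and the sign-flip test paired the classes in that way.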
